A study of Mus musculus with 8 samples.

Results

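The 62 genes described here encode proteins of the cytosolic ribosome. They were chosen by symbol alone, as Rpsa, Rplp0, Rplp1 or Rplp2, or as Rpl or Rps followed by 1 or 2 digits and, where present, the endings a, x, l or l1. Of 19505 genes measured on the arrays, 62 met this rule, 23 of the small subunit and 39 of the large subunit, and each was read by 1 probe set. A further 13 annotated symbols that begin with Rpl or Rps and a digit fell outside it, among them the Rps6k kinases, Rpl31-ps12, Rpl36al and Rps3a1. Rps4l met the rule, although RefSeq lists it as a transcribed pseudogene. Some well-known members, such as Rps3, Rps27, Rps27a, Rpl10, Rpl12, Rpl18, Rpl26 and Rplp2, were not analysed here.

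RNA came from hematopoietic stem cells of mice aged 6 to 10 weeks, sorted from bone marrow as lineage-negative cells that carry c-Kit, Sca-1 and CD150 and lack CD48. Cells of both groups were cultured after sorting with stem cell factor at 100 ng/ml and the antimicrobial Primocin at 200 µg/ml. In the first group (title EP), 4 arrays, the culture contained eltrombopag at 10 µg/ml for 16 h. In the second group (title NT), also 4 arrays, it contained sterile water as vehicle for the same time. Strain and sex are not given in the sources used here. The labels number the arrays 1 to 4 in each group as biological replicates and do not say whether each came from its own animals. The p-values therefore cover the variation seen among these 8 arrays, which may be technical in part. Eltrombopag, a drug taken by mouth, activates the human thrombopoietin receptor and chelates iron. The question put to the 62 genes is whether their transcripts changed with it.

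Ribosomal proteins assemble with ribosomal RNA into a small subunit, which reads the mRNA, and a large subunit, which joins amino acids. In vertebrates most of their mRNAs begin with a C and a run of pyrimidines, the 5′ terminal oligopyrimidine (TOP) tract, through which the kinase mTORC1 and the RNA-binding protein LARP1 set the translation and stability of these mRNAs as a class. Blood stem cells make protein slowly, and loss of 1 copy of a single ribosomal protein gene can cause the human anaemia named after Diamond and Blackfan.

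The starts of several members are printed to show the tract where a RefSeq start carries it, which was the case for 12 of 49 genes (24.5%). A gene with several annotated starts was counted if any of them carried it. RefSeq promoter windows (build GRCm38.p6) were matched by symbol for 49 of the 62 genes, in 60 windows, since some genes have several annotated starts. The search took a C followed by at least 4 bases that are each C or T, on the transcribed strand only, since the tract belongs to the mRNA. It was found exactly at the annotated start in 12 of 60 windows (20%), against 2.51% of all 32851 windows of the table. Within 5 bases either side of the start it was found in 38.3% of the members' windows, against 18.3% of all windows. Each line gives 15 bases before and 15 bases from the annotated start. Capitals mark the pyrimidine run only from that start onward. In the marked lines the base just before it is also C or T, so the run itself begins further upstream. Rpl35a has other annotated starts without the run, which are not printed. The last 2 lines are paralogs with no such run at the start and are in lower case throughout.
Rps6 (chr4:86857353-86857382, minus strand): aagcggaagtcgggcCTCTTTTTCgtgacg
Rps10 (chr17:27635230-27635259, minus strand): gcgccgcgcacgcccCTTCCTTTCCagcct
Rps15a (chr7:118116133-118116162, minus strand): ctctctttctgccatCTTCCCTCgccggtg
Rps18 (chr17:33955651-33955680, minus strand): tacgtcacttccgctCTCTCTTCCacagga
Rpl15 (chr14:18270972-18271001, minus strand): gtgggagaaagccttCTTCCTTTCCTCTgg
Rpl28 (chr7:4792950-4792979, plus strand): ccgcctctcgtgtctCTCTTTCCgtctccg
Rpl35 (chr2:39005117-39005146, minus strand): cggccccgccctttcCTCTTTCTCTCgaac
Rpl35a (chr16:33056467-33056496, plus strand): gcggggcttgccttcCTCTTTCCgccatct
Rpl10l (chr12:66284387-66284416, minus strand): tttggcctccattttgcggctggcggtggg
Rpl39l (chr16:10170213-10170242, plus strand): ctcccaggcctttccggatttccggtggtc
An annotated start can lie some bases away from the start used in these cells, so a window without the run says only that these letters are not there.

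The 8 arrays were alike, with Pearson correlations across genes between 0.9868 and 0.9933. Kit, the receptor used in the sort, was bright in all 8 arrays, with log2 values of 12.82 to 12.94, and the stem cell factors Hlf (11.19 to 11.78) and Mecom (10.06 to 10.51) were bright too. Other stem cell genes lay lower, with Procr at 6.41 to 7.38, Mycn at 6.46 to 7.18 and Tek at 6.84 to 8.59. Slamf1, which encodes CD150, lay between 6.19 and 7.75, and Cd48 between 5.66 and 6.55, below every array's median of 6.76 to 6.80. Markers of other cell types were mixed. Cd3g of T cells lay at 3.39 to 4.15 and Ms4a2 of mast cells at 3.96 to 4.32. Above all array medians lay, among others, Nkg7 of NK cells (8.22 to 8.81). So did Prtn3 (8.65 to 9.03) and Csf1r (8.54 to 8.97) of myeloid cells and Pf4 of megakaryocytes (8.36 to 9.24). Of erythroid cells, Slc4a1 (7.58 to 8.45) and Alas2 (7.51 to 9.30) did as well. In the same lists Mpo (5.41 to 6.28), Ppbp (4.476 to 5.835) and Ermap (5.86 to 6.36) lay below every array median. Stromal and endothelial markers were split too, with Pecam1 (8.80 to 9.38) and Col1a1 (7.47 to 7.86) above all medians. Lepr (3.40 to 3.75) and Kdr (4.27 to 5.03) lay below them. Ly6a, which encodes Sca-1, was not analysed here. Y-linked Uty set the 2 arrays numbered 3 apart, at 6.98 with eltrombopag and 7.71 with vehicle, while the other 6 arrays lay between 3.02 and 3.31.

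Ribosomal protein transcripts gave some of the brightest signals on the arrays. In each array, 33 to 38 of the 62 members lay above the 99th percentile of all genes, and 2 lay below the array median. Of the 62, 55 had a mean log2 value above 10, and the highest single value was 13.23, for Rpsa, the laminin receptor homologue of the small subunit. These values come from probe sets that differ in brightness per transcript, so they give no order of abundance between genes. Whether the brightest probe sets were near saturation was not tested. The values were tight. The spread of a member between its lowest and highest array had a median of 0.22 on the log2 scale, and 46 of the 62 members spanned less than 0.3. The within-group SD had a median of 0.0798 for the members and of 0.18 for all genes.

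None of the ribosomal protein genes was called with eltrombopag. By limma the calls were 0 of 62 members (smallest adjusted p 0.99978), against 0% of all 19505 genes, at an adjusted p under 0.05. At an unadjusted p under 0.05 there were 0 members and 650 of all genes. The log2 difference, eltrombopag minus vehicle, was positive in 48 members and negative in 14, with a median of 0.0156 over the members and of 0.0071 over all genes. This is 77.4% of the members, against 52.3% of all genes. The count depended on the processing and on single arrays. With equal array medians 40 members were higher, with a further quantile normalization 43 and with array weights 54. The count also moved when single arrays were left out. It was 60 without vehicle array 1, but 27 without eltrombopag array 1, 30 without vehicle array 3 and 29 without vehicle array 4, and the median was then 0.051, -0.0048, -0.0013 and -0.0031. For 61 of the 62 members, all but Rpl39l, the 95% interval held no 1.5-fold change up or down, and for 46 of them no 1.2-fold change. The same was so for 88.0% and 11.7% of all genes. RMA sets the arrays to a common scale, and in RNA of a whole cell sample fewer cells with a transcript and less of it per cell cannot be told apart.

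**Figure D1:**
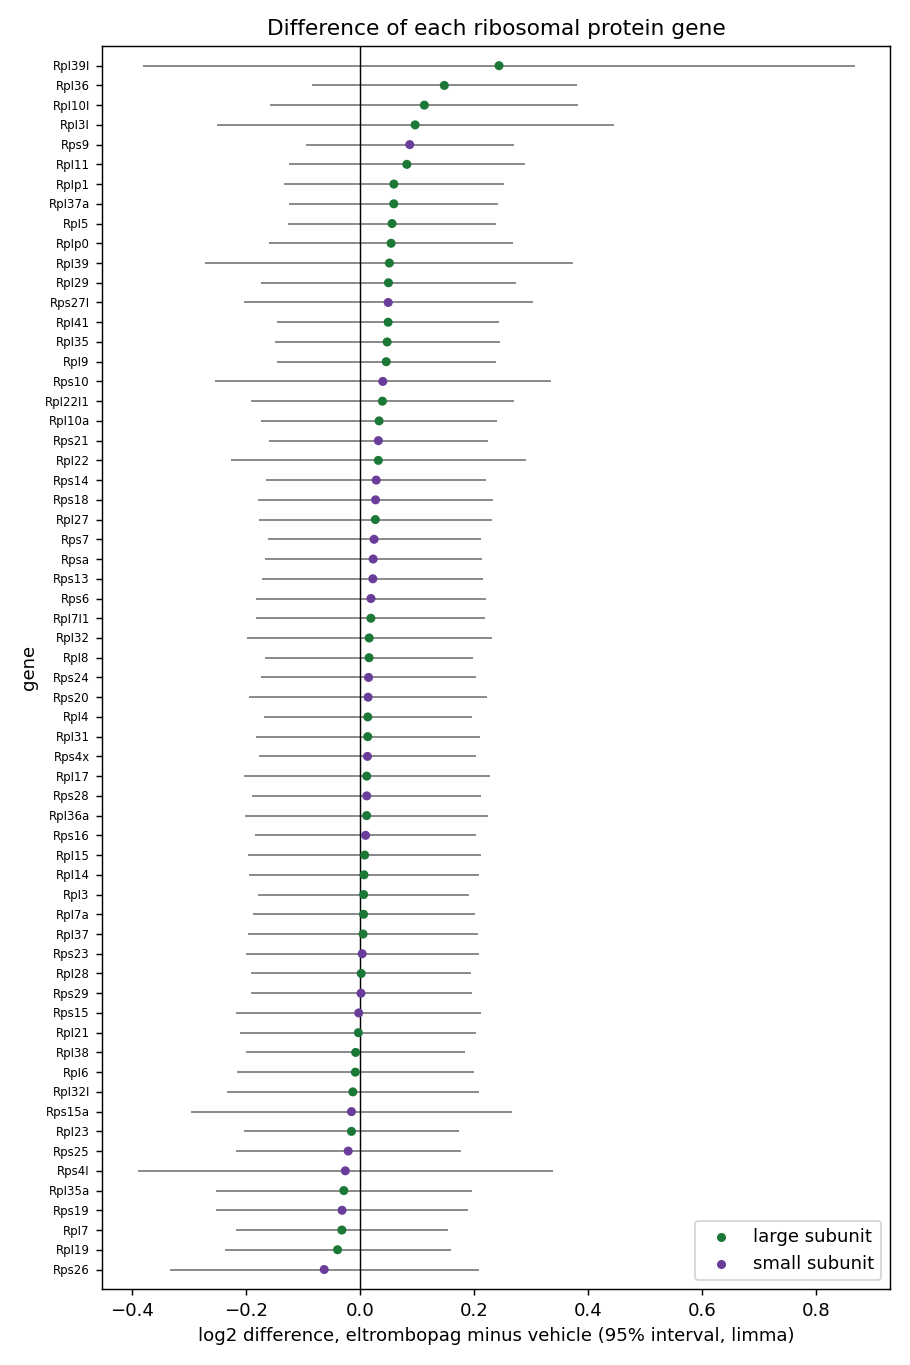
Log2 difference of each of the 62 ribosomal protein genes, eltrombopag minus vehicle, on the horizontal axis, 1 gene per row, with the 95% interval from limma as a line; point colour gives the subunit. All 62 intervals include 0, 59 differences are smaller than 0.1 in size, and Rpl39l has the widest interval, from -0.38 to 0.87.

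Neither subunit held a called gene. Of the 23 small subunit genes 17 were higher and 6 lower, with differences from -0.063 to 0.087 and a median of 0.0143. Of the 39 large subunit genes 31 were higher and 8 lower, with differences from -0.039 to 0.24 and a median of 0.0162. The members' fitted errors were set largely by the other genes. limma draws each gene's variance towards a common value, and the members' median SE was 0.0911 in this fit. It was 0.0563 where the common value follows brightness, in a fit with both the trend and the robust option of limma. Every later mention of a variance that follows brightness means this fit with both options. That fit also called 0 members, and its 95% intervals held no 1.2-fold change for 54 of the 62 members and no 1.1-fold change for 23, against 12.2% and 0.523% of all genes.

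The 5 members with the smallest p on the higher side were Rpl36, Rps9, Rpl10l, Rpl11 and Rpl39l. Rps9, a small subunit protein near the mRNA entry, had log2 values of 12.29, 12.19, 12.20 and 12.25 with eltrombopag and 12.12, 12.15, 12.17 and 12.15 with vehicle. All 4 eltrombopag arrays lay above all 4 vehicle arrays, which held for 1 of the 62 members and for 1.12% of all genes. No member lay entirely lower (0 of 62), against 1.0% of all genes. The difference of Rps9 was 0.087 (SE 0.0825), with a 95% interval from -0.096 to 0.27, and from -0.0045 to 0.18 where the common variance follows brightness.

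Rpl36, a large subunit protein, had 9.65, 9.48, 9.30 and 9.52 with eltrombopag and 9.48, 9.28, 9.29 and 9.30 with vehicle. Eltrombopag was higher within each of the 4 numbers, by 0.0071 to 0.22, but vehicle array 1 lay above eltrombopag arrays 2 and 3. Its difference was 0.15 (SE 0.105, interval -0.084 to 0.38). Rpl11 had 11.56, 11.48, 11.33 and 11.43 with eltrombopag and 11.48, 11.36, 11.37 and 11.28 with vehicle. The groups overlapped, and the difference was 0.082 (SE 0.0936). Rpl11 joins Rpl5 and the 5S rRNA in a particle that binds Mdm2, the ligase that degrades p53.

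**Figure D2:**
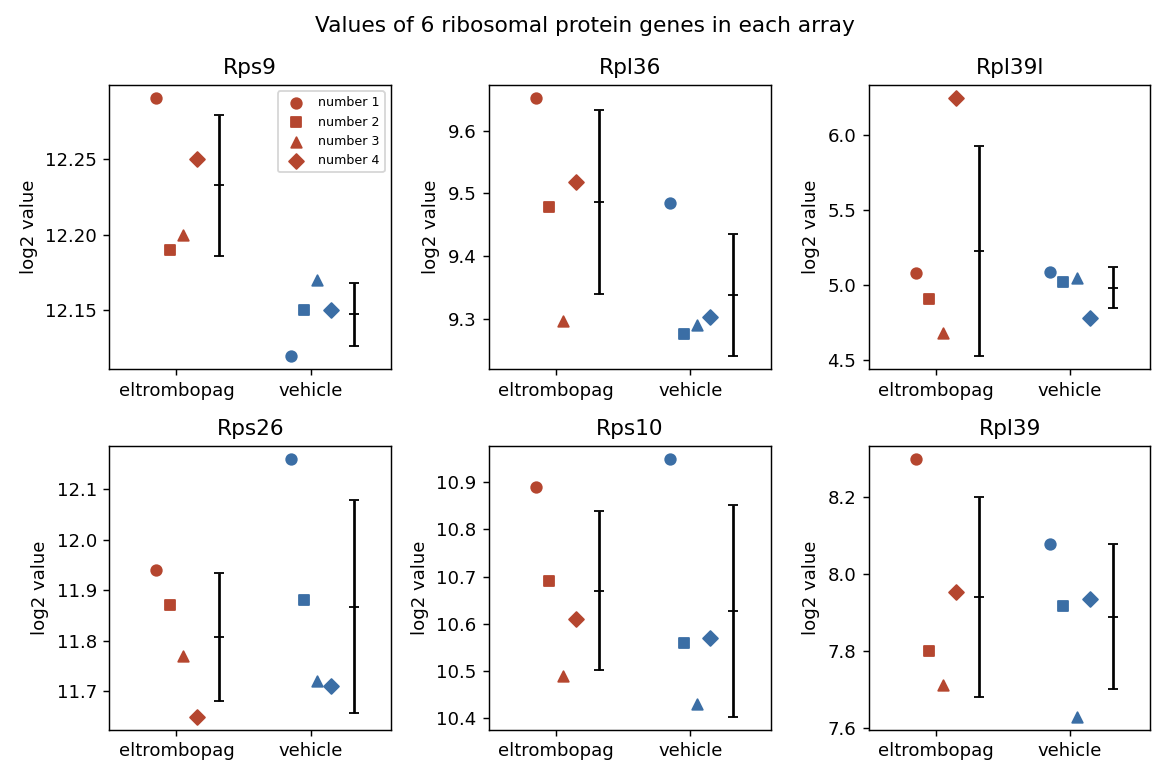
Log2 values of 6 ribosomal protein genes in each array, by group (horizontal axis) and replicate number (symbol), with the mean and SD of each group of 4 beside the points; vertical axes differ between panels and do not start at 0. The eltrombopag values of Rps9 lie above all its vehicle values, while Rps26, Rps10 and Rpl39 are highest in the arrays numbered 1 of both groups.

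The 5 members with the smallest p on the lower side were Rps26, Rpl19, Rpl7, Rps19 and Rpl35a. Rps26, a small subunit protein that contacts the mRNA upstream of the codon being read, had 11.94, 11.87, 11.77 and 11.65 with eltrombopag and 12.16, 11.88, 11.72 and 11.71 with vehicle. Vehicle array 1 was the highest of the 8, and the groups overlapped. The difference was -0.063 (SE 0.122), and without vehicle array 1 it was 0.0345. Rpl19, a large subunit protein that bridges to the small subunit, had 11.61, 11.47, 11.37 and 11.53 with eltrombopag and 11.56, 11.53, 11.55 and 11.50 with vehicle. Here the eltrombopag arrays spread to both sides of the 4 vehicle arrays, with a difference of -0.039 (SE 0.0895). Rpl7 had 12.76, 12.80, 12.76 and 12.79 with eltrombopag and 12.90, 12.79, 12.78 and 12.77 with vehicle. Only vehicle array 1 stood off, and the difference was -0.032 (SE 0.0843).

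Of 20 listed genes whose human counterparts are mutated in Diamond-Blackfan anaemia, 16 were measured. Of these 12 were higher and 4 lower with eltrombopag, with a median difference of 0.0144, and 0 were called. Rps19, the gene most often mutated in that disease, had 10.87, 10.76, 10.69 and 10.67 with eltrombopag and 10.97, 10.72, 10.70 and 10.73 with vehicle. The arrays numbered 1 were the highest in both groups, and the difference was -0.031 (SE 0.10). Without vehicle array 1 it was 0.031. Rpl35a, another of these genes, had 11.86, 11.87, 11.69 and 11.69 with eltrombopag and 11.99, 11.78, 11.70 and 11.76 with vehicle, a difference of -0.028 (SE 0.102). Its groups overlapped, and its sign turned without vehicle array 1, to 0.033. Rps14, whose human counterpart lies in the segment lost in the 5q- syndrome, had 12.60, 12.64, 12.60 and 12.61 with eltrombopag and 12.68, 12.62, 12.48 and 12.56 with vehicle. The eltrombopag values all lay within the vehicle range, with a difference of 0.028 (SE 0.0868).

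Of 9 listed proteins that bind Mdm2, 6 had a measured gene. In them 5 were higher and 1 lower with eltrombopag, with a median difference of 0.0391, and 0 were called. Rpl5 had 12.51, 12.49, 12.56 and 12.48 with eltrombopag and 12.49, 12.44, 12.43 and 12.47 with vehicle. It was higher in each of the 4 numbers although the groups overlapped, and the difference was 0.056 (SE 0.0824). Being higher in all 4 numbers held for 7 of the 62 members, namely Rpl36, Rps9, Rpl37a, Rpl5, Rpl41, Rpl35 and Rpl27, and for 6.73% of all genes. Lower in all 4 were 0 of the 62, against 5.87% of all genes.

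The stalk of the large subunit recruits elongation factors. Rplp0, its base, had 10.36, 10.16, 10.14 and 10.12 with eltrombopag and 10.25, 10.17, 10.05 and 10.10 with vehicle, a difference of 0.055 (SE 0.0966). Rplp1, which binds to that base, had 12.96, 12.90, 12.78 and 12.83 with eltrombopag and 12.82, 12.85, 12.81 and 12.75 with vehicle, a difference of 0.060 (SE 0.0873). In both genes the groups overlapped, and eltrombopag array 1 was the highest of the 8. Rps6, the substrate of the S6 kinases downstream of mTORC1, had 12, 12.12, 11.91 and 12.06 with eltrombopag and 12, 12.07, 12.03 and 11.90 with vehicle. Its difference was 0.019 (SE 0.0912), and its sign turned without eltrombopag array 2 or vehicle array 4. Phosphorylation of the protein was not measured here. Rpsa had 13.17, 13.23, 13.10 and 13.17 with eltrombopag and 13.20, 13.19, 13.09 and 13.09 with vehicle, a difference of 0.023 (SE 0.086), which became -0.039 with a further quantile normalization.

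Of the 5 members with the widest spread over the 8 arrays, 3 were paralogs, namely Rpl39l (1.57 on the log2 scale), Rpl3l (0.75) and Rpl10l (0.53), and their means were 5.10, 5.50 and 7.18. All 6 listed paralogs had a positive difference, as had 77.4% of all members, with a median of 0.0732, and 0 were called. The signs of Rpl39l, Rpl3l, Rpl22l1 and Rpl7l1 turned when single arrays were left out, so no direction is given for them. Rpl39l, a paralog known from mouse testis, had 5.08, 4.90, 4.68 and 6.25 with eltrombopag and 5.08, 5.02, 5.05 and 4.78 with vehicle. Eltrombopag array 4 alone stood high, and the other 3 eltrombopag arrays lay below the highest vehicle array. The difference was 0.24 (SE 0.282), and without eltrombopag array 4 it was -0.097. Rpl39, its main gene, which lies on the X chromosome and lines the tunnel where the new protein leaves the ribosome, had 8.30, 7.80, 7.71 and 7.95 with eltrombopag and 8.08, 7.92, 7.63 and 7.94 with vehicle. Within each group the arrays numbered 1 were highest and those numbered 3 lowest, and the difference was 0.052 (SE 0.146).

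Rpl10l, which stands in for X-linked Rpl10 in mouse male meiosis, had 7.20, 7.17, 7.32 and 7.25 with eltrombopag and 7.449, 6.92, 7.12 and 7.002 with vehicle. The vehicle arrays enclosed the eltrombopag arrays, and the difference was 0.11 (SE 0.122). Without vehicle array 1 it was 0.22, where Rpl10l was the 1 member with an unadjusted p under 0.05 (adjusted p 0.996 in limma), and without vehicle array 2 it was 0.044. Rpl3l, a paralog of heart and skeletal muscle, had 5.76, 5.49, 5.52 and 5.41 with eltrombopag and 5.38, 5.35, 5.91 and 5.16 with vehicle. Vehicle array 3 was the highest of the 8, and the difference was 0.097 (SE 0.157). Its main gene Rpl3 had 12.56, 12.56, 12.53 and 12.48 with eltrombopag and 12.51, 12.57, 12.48 and 12.54 with vehicle. That difference was 0.0065 (SE 0.0831), and its sign turned with equal array medians, so no direction is given.

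Rpl22l1, a paralog of Rpl22, had 11.28, 11.17, 11.05 and 11.15 with eltrombopag and 11.33, 11.09, 10.99 and 11.08 with vehicle, a difference of 0.039 (SE 0.104). Rpl22 had 11.41, 11.30, 11.23 and 11.24 with eltrombopag and 11.57, 11.21, 11.16 and 11.12 with vehicle, a difference of 0.032 (SE 0.117). In both genes the array numbered 1 was the highest of each group. Rps27l, which p53 induces, had 11.21, 11.07, 11.00 and 11.19 with eltrombopag and 11.33, 10.93, 10.93 and 11.07 with vehicle, a difference of 0.050 (SE 0.114). Without vehicle array 1 it was 0.14, and without vehicle array 3 it was 0.0038. Rpl7l1, a relative of Rpl7, had 10.25, 10.17, 10.03 and 10.10 with eltrombopag and 10.16, 10.16, 10.11 and 10.04 with vehicle, a difference of 0.019 (SE 0.0908). All 4 genes had groups that overlapped.

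Across arrays the members' averages went in part with the replicate number. The members were read on the same arrays, so the counts below describe them and are no test. With each gene set against its own mean over the 8 arrays, the members averaged 0.0791, 0.0186, -0.0724 and 0.0248 in eltrombopag arrays 1 to 4 and 0.0953, -0.0233, -0.0573 and -0.0648 in vehicle arrays 1 to 4. The arrays numbered 1 were high in both groups, with 53 of 62 members above their own mean in eltrombopag array 1 and 54 in vehicle array 1. The arrays numbered 3 were low in both, with 11 and 5 members above their own mean. Averaged over the 2 arrays of a number, 52 of the 62 members were highest in number 1, against 32.1% of all genes, and 42 were lowest in number 3, against 22.2% of all genes. The 99th percentile of all genes was 11.69, 11.70, 11.66 and 11.71 in the eltrombopag arrays. In the vehicle arrays it was 11.70, 11.69, 11.68 and 11.68, and many members are themselves among the genes above it. The upper quartile of all genes was 8.664, 8.697, 8.677 and 8.658 with eltrombopag. With vehicle it was 8.615, 8.72, 8.686 and 8.673. Whether the scale of the arrays had a part in the pattern was not tested. Among the numbers, number 4 was the exception, with 33 members above their own mean in the eltrombopag array and 6 in the vehicle array. Vehicle array 4 averaged lower (-0.0648) than vehicle array 3 (-0.0573).

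**Figure D3:**
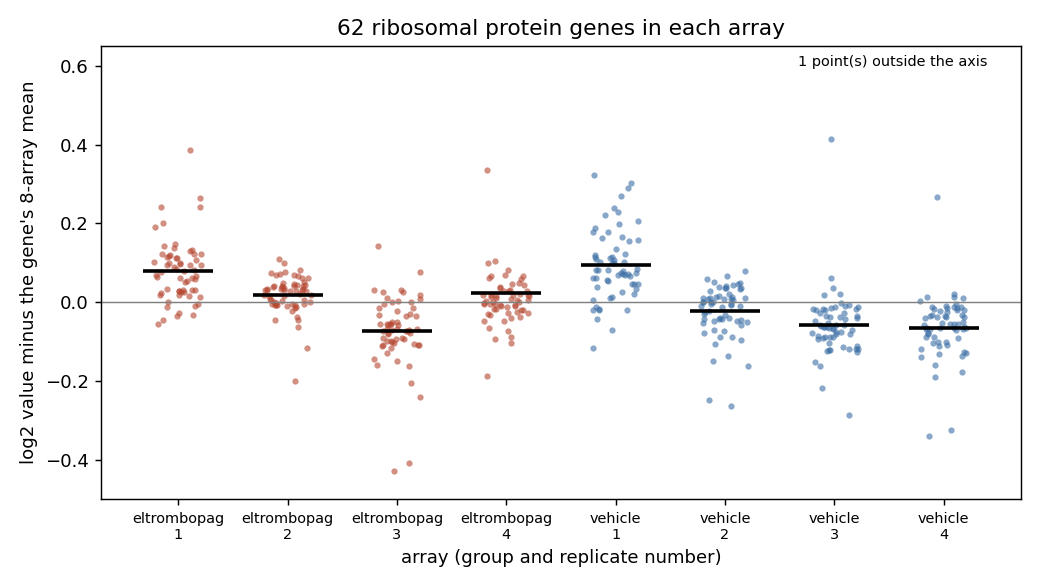
Each point is 1 of the 62 ribosomal protein genes in 1 array, as its log2 value minus that gene's mean over the 8 arrays (vertical axis), by group and replicate number (horizontal axis); black bars are means over the genes, and 1 point lies outside the axis. The bars are highest in the 2 arrays numbered 1, at 0.0791 with eltrombopag and 0.0953 with vehicle.

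The difference between eltrombopag and vehicle was not alike in the 4 numbers, which was not tested. The labels state no pairing by number. Within number 1, 24 members were higher and 38 lower with eltrombopag, with a median of -0.0254. Within number 2, 47 were higher and 15 lower, with a median of 0.0389. In number 3 they were split 31 to 31, with a median of 0.00028, and in number 4, 55 were higher and 7 lower, with a median of 0.0643. All genes were higher in 50.7%, 51.2%, 53.2% and 49.7% of cases in numbers 1 to 4. With the number as a block in the fit, 0 members were called as well.

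**Figure D4:**
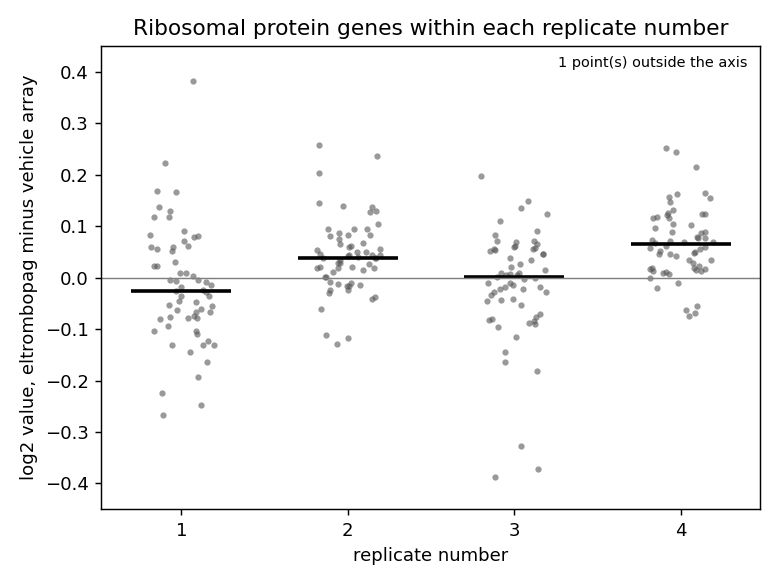
Each point is 1 ribosomal protein gene, as the log2 value of the eltrombopag array minus that of the vehicle array of the same replicate number (vertical axis), for numbers 1 to 4 (horizontal axis); bars are medians over the 62 genes, and 1 point lies outside the axis. The median is below 0 in number 1 (-0.0254) and highest in number 4 (0.0643).

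The spread across the 4 numbers was tested gene by gene with limma's F test, with group in the fit. It called 0 of 62 members (smallest adjusted p 0.453), against 0.210% of all genes. At an unadjusted p under 0.05 there were 3 members, which is 4.84% of them, against 10.2% of all genes. Where the common variance follows brightness, 0 members were called, against 1.02% of all genes, and 22 members (35.5%) had an unadjusted p under 0.05, against 12.1% of all genes. With 2 arrays a number, few degrees of freedom are left for this test.

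The 5 members with the smallest p across the numbers were Rpl39, Rps10, Rps4l, Rps15a and Rps26. Rps10, in the head of the small subunit, had 10.89, 10.69, 10.49 and 10.61 with eltrombopag and 10.95, 10.56, 10.43 and 10.57 with vehicle. Both groups had number 1 highest and number 3 lowest, with an adjusted p of 0.46 in limma's F test. Where the common variance follows brightness, the adjusted p of limma was 0.0801 for Rps10 and 0.0772 for Rps26. Rps15a, also of the small subunit, had 11.28, 11.12, 10.84 and 11.05 with eltrombopag and 11.31, 11.16, 10.99 and 10.89 with vehicle. Number 1 was the highest of each group, and its difference between the groups was -0.015 (SE 0.127). The pseudogene Rps4l went another way. It had 8.52, 8.47, 8.08 and 8.82 with eltrombopag and 8.60, 8.24, 8.41 and 8.75 with vehicle, highest in number 4 of each group. Mouse ribosomal protein genes have many processed copies in the genome, and whether probe sets read such copies was not tested.

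Other values moved with the numbers too, and their part in the pattern was not tested. The 5 measured erythroid markers of 10 listed averaged -0.17, -0.27, 0.49 and 0.088 against their own means in eltrombopag arrays 1 to 4, and -0.24, -0.18, 0.23 and 0.040 in the vehicle arrays. On average they were low in numbers 1 and 2 and high in number 3, but the members were not alike. In the arrays numbered 1, Slc4a1 lay at 8.25 (eltrombopag) and 8.09 (vehicle), against 7.67 and 7.58 in those numbered 2. Alas2 had 7.70 and 7.87 in the arrays numbered 1, against 7.51 and 8.03 in those numbered 2. The lowest single value of these markers was 5.86, for Ermap, and Alas2 ranged most, from 7.51 to 9.30. The globin genes were not analysed here. The 9 measured stem cell genes of 11 listed averaged -0.15, -0.044, 0.16 and 0.053 with eltrombopag and -0.24, -0.078, 0.12 and 0.18 with vehicle. Their averages were lowest in number 1 of each group, but again the members were not alike. Tek was lowest in number 1 of each group, at 6.952 (eltrombopag) and 6.839 (vehicle). Mycn was lowest in number 3 of each group, at 6.568 and 6.462. The 11 measured neutrophil and monocyte markers of 12 listed averaged 0.14, -0.27, 0.34 and -0.18 with eltrombopag and -0.14, -0.35, 0.17 and 0.29 with vehicle. These averages were lowest in number 2 of each group. They were highest in array 3 with eltrombopag but in array 4 with vehicle. Here too the members differed. S100a8 was lowest in number 2 of each group, at 4.035 (eltrombopag) and 4.35 (vehicle). Elane was highest in number 2 of each group, at 7.735 and 7.458. The 3 measured Y-linked genes of 5 listed Y-linked and X-inactivation genes averaged 1.6 with eltrombopag and 2.33 with vehicle in number 3, and -0.76 to -0.58 in the other 6 arrays. In number 3, Kdm5d was high like Uty, at 6.359 (eltrombopag) and 7.081 (vehicle). Eif2s3y was 4.732 in vehicle array 3 but 3.996 in eltrombopag array 3, close to its 3.949 in eltrombopag array 1. Of these 3 genes, 2 were called across the numbers by limma's F test.

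The other genes of the pathway were read from lists. Of 27 listed TOP mRNAs of other translation proteins 22 were measured, of which 10 were higher and 12 lower with eltrombopag, with a median difference of -0.0021, and 0 were called. Across the arrays they averaged 0.0528, 0.0399, -0.0769 and -0.0109 in the eltrombopag arrays and 0.0583, 0.0176, -0.0369 and -0.0440 in the vehicle arrays, high in number 1 and low in number 3 as the ribosomal protein genes were. Eef1b2, a subunit of the exchange factor for eEF1A, had the smallest p among them, with 11.47 ± 0.105 (SD, n = 4) with eltrombopag and 11.33 ± 0.0631 (SD, n = 4) with vehicle, a difference of 0.15 (SE 0.0929). Fau, which encodes a small subunit protein fused to a ubiquitin-like one, differed by 0.026 (SE 0.0914), and Rpl36al, a copy of Rpl36a, by -0.013 (SE 0.101). In the vehicle group both were highest in array 1, at 10.18 and 11.46. Neither gives a direction, since both signs turned when single arrays were left out.

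**Figure D5:**
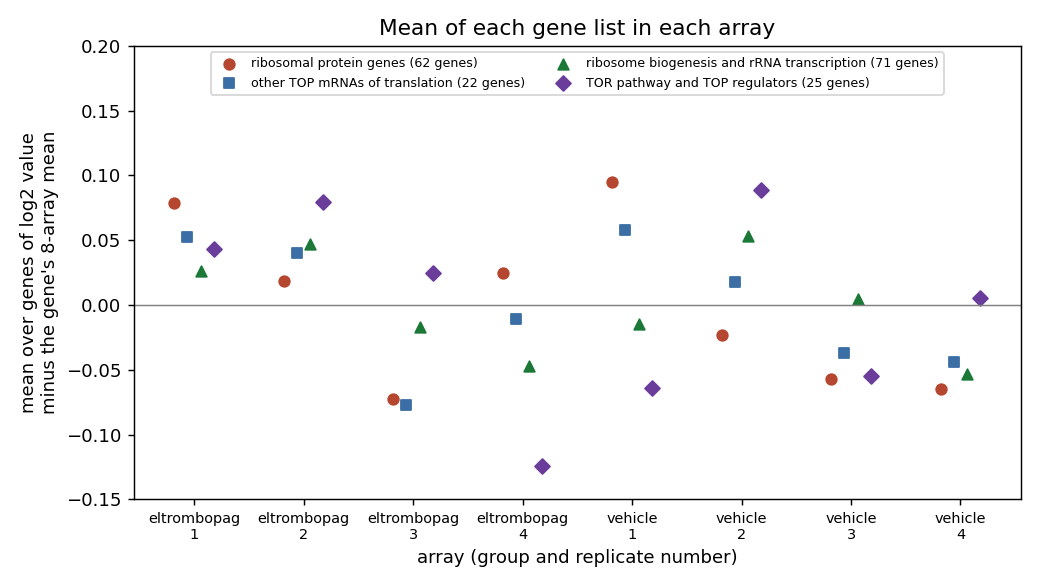
Mean over the genes of each list of the log2 value minus the gene's own mean over the 8 arrays (vertical axis), by group and replicate number (horizontal axis), for 62 ribosomal protein genes, 22 other TOP mRNAs, 71 genes of ribosome biogenesis and 25 genes of the TOR pathway. The other TOP mRNAs lie at 0.0528 and 0.0583 in the arrays numbered 1, beside 0.0791 and 0.0953 for the ribosomal protein genes, while the biogenesis genes lie at 0.0262 and -0.0145.

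Genes that build ribosomes numbered 71 of 75 listed, with 38 higher and 33 lower, a median difference of 0.0195 and 0 called. Polr1a, the largest subunit of RNA polymerase I, which transcribes ribosomal RNA, had 9.18, 9.47, 9.38 and 9.43 with eltrombopag and 9.51, 9.66, 9.75 and 9.65 with vehicle. All eltrombopag arrays lay below all vehicle arrays, as for 1.0% of all genes, and the difference of -0.28 (SE 0.101) was not called (adjusted p 0.99978 in limma). Taf1a, a subunit of the factor that brings that polymerase to its promoter, differed by 0.20 (SE 0.0985), and Tsr1, an assembly factor of the small subunit, by -0.13 (SE 0.0925). Of 25 measured genes of the TOR pathway and of TOP regulation, 13 were higher and 12 lower, with a median of 0.0076 and 0 called. Rragc, a GTPase that reports amino acids to mTORC1, differed by -0.27 (SE 0.125), Lamtor2 by 0.14 (SE 0.103) and Lamtor1 by 0.15 (SE 0.131), the last 2 being parts of its lysosomal anchor. Of 18 measured genes of the p53 response, 11 were higher and 7 lower, with a median of 0.0272 and 0 called. Btg2 differed by -0.58 (SE 0.113), Eda2r by 0.55 (SE 0.234) and Ccng1 by -0.23 (SE 0.161), so these p53 targets did not lie on 1 side. In Btg2 all eltrombopag arrays (5.776 to 6.206) lay below all vehicle arrays (6.4 to 6.666), as for 1.0% of all genes. Both Btg2 and Eda2r lay below every array median. Eda2r was 0.35 without eltrombopag array 1 and 0.79 without eltrombopag array 4, and Ccng1 was -0.0995 without eltrombopag array 4.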

How the data were processed

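RNA was measured on Affymetrix mouse arrays, 4 per group, after amplification from about 10 ng with a 3' IVT kit, per the labels' protocols. The authors deposited log2 values made by RMA, with oligo and limma as further tools, per the submitters' processing notes, which give no versions. RMA brings all arrays to a common distribution, so a change in total RNA is removed. For the probe sets, a genome build was not given in the sources used here.

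Of 22206 probe sets, 19572 had 1 gene symbol in the platform annotation, 0 had several and 2634 were unnamed here. For the 55 genes with several, the brightest one by its mean stood for the gene. No filter on dim genes was set. Log2 values were fitted with lmFit and eBayes of limma 3.58.1 under R 4.3.3 (two-sided, group as the only term), with Benjamini-Hochberg adjustment over all 19505 genes. A second fit with group and replicate number gave the F test across numbers. Both were run on simulated data in which genes varied independently of each other. Those data therefore do not cover genes that move together across arrays. Precision is limited by the number of arrays.

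The members, lists, named genes and tests were chosen with earlier results of these data known. Values in every array are given for the 5 members with the smallest p in each direction and across numbers, the paralogs with their main genes, Rps19, Rps14, Rpl5, Rpl11, Rps6, Rpsa and the stalk genes. Up to 3 genes with the smallest p are named from each other list, and Fau and Rpl36al always.

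Deviations from group means correlated across genes at 0.232, 0.286, 0.181 and 0.133 between arrays of the same number, and at -0.203 to 0.167 between others. All 4 were over 0.1, but so were eltrombopag array 4 with vehicle array 3 (0.167) and eltrombopag array 3 with vehicle array 4 (0.166). Both lay above the 0.133 of number 4, so the correlations do not single out the pairing of number 4. Arrays of 1 number were taken as pairs in the differences within numbers and in the block fit, on the data alone. The labels state no pairing, and the main fit was unpaired.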

Additional observations from a re-analysis of the deposited data

Results flagged for a closer look

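In 154 groups of 4 values, 2 for each of the 62 ribosomal protein genes, each other named gene and the mean of the 62 genes, the highest or lowest array was set against the other 3 by Dixon's test. It stood off in 9 groups, and chance alone gives about 7.7 (about 1 in 20). Of these, 6 were vehicle array 1, always on the high side. There Rpl36 was 9.484 (other vehicle arrays 9.276 to 9.303) and Rpl7 was 12.90 (12.77 to 12.79). In the same array Rps19 was 10.97 (10.70 to 10.73) and Rps23 was 12.24 (12.01 to 12.04). Outside the 62 genes, Fau was 10.18 (10.03 to 10.04) and Rpl36al was 11.46 (11.12 to 11.17) in that array. Rplp0 was high in eltrombopag array 1, at 10.36 (other eltrombopag arrays 10.12 to 10.16). Eltrombopag array 3 was low for Rpl29, at 11.45 (11.68 to 11.71), and for Rpl31, at 12.75 (the others all at 12.85). What sets these arrays apart was not tested.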

How the results depend on the processing

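Under 20 alternative settings, limma called 0 genes and 0 ribosomal protein genes between eltrombopag and vehicle, and at most 1 member had an unadjusted p under 0.05. The fit with the replicate number as a replicate block also called 0 genes, and this pairing changed no call. Leaving out each array in turn gave 27 to 60 of 62 members higher with eltrombopag, with a median difference of -0.0048 to 0.051. With both arrays numbered 1 left out, a setting chosen after seeing the data, 53 were higher, and without Rps4l, also chosen so, 48 of 61. The number of genes called across the replicate numbers, 41, was 198 with variances that follow brightness, 2 without number 3 and 12 without number 1. Those last fits hold fewer arrays.

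Of 40 named genes, 17 kept the sign of their difference in all settings. The sign turned in the following cases, and the cause was not tested. Rpsa was -0.0389 with quantile normalization and Rpl3 was -0.00337 with equal array medians. With array weights, Rps15a was 0.0122 and Rpl36al 0.0108. Without number 3, Rpl19 was 0.00809, Rps4l 0.0746, Rps15a 0.0284, Rpl3 -0.00639 and Rps14 -0.00326. With numbers 1 and 2 only, Rpl39l was -0.0608, Rps4l 0.0775, Rpl22 -0.0345, Rps14 -0.0298 and Eef2 0.00316. With numbers 3 and 4 only, Rpl7 was 0.000371, Rps15a 0.00856, Rpl3l -0.0689, Rpl7l1 -0.0143, Rpl3 -0.0117, Lamtor1 -0.115 and Rpl36al 0.0391. Without number 1, Rpl7 was 0.00623, Rpl35a 0.00603, Rpl39 -0.00533, Rpl7l1 -0.00455, Rpl3 -0.011 and Rpl36al 0.054.

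Leaving out single arrays gave ranges that cross 0 for several genes. They were -0.0965 to 0.427 for Rpl39l, -0.000176 to 0.251 for Rpl3l, -0.141 to 0.106 for Rps4l, -0.0682 to 0.128 for Rpl39 and -0.0324 to 0.148 for Rps10. For Rps26 the range was -0.116 to 0.0345, for Rps15a -0.083 to 0.0621, for Rps19 -0.0732 to 0.0313, for Rps14 -0.00653 to 0.0585 and for Rps6 -0.0131 to 0.0562. For Rpl19 it was -0.0769 to 0.0013, for Rpl22 -0.0172 to 0.136, for Rpl22l1 -0.00448 to 0.11, for Rpl35a -0.0649 to 0.0334 and for Rpl3 -0.00711 to 0.0251. For Rpl7l1 it was -0.0182 to 0.0553, for Rplp0 -0.00127 to 0.09, for Fau -0.00436 to 0.0655 and for Rpl36al -0.0503 to 0.0623. Some differences kept their sign but moved by over 1.5 times. The range was 0.0443 to 0.222 for Rpl10l, 0.00378 to 0.139 for Rps27l, 0.0928 to 0.212 for Rpl36, 0.0461 to 0.122 for Rpl11 and 0.0291 to 0.0886 for Rplp1. It was 0.00222 to 0.0464 for Rpsa, -0.0452 to -0.000614 for Rpl7, -0.337 to -0.159 for Rragc, 0.0679 to 0.264 for Lamtor1, 0.353 to 0.794 for Eda2r and -0.331 to -0.0995 for Ccng1.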
